A study of Mus musculus with 10 samples.

Results

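The genes described here encode the secreted Wnt ligands, their Frizzled receptors, the secreted Wnt antagonists and the R-spondins. They were chosen by symbol alone: every protein-coding gene of the mouse build mm10 on chromosomes 1 to 19 named Wnt, Fzd, Sfrp, Dkk or Rspo with a number, together with Wif1 and Frzb. The rule gave 43 genes of 20665: 19 Wnt ligands, 10 Frizzled receptors, 10 secreted antagonists (Sfrp1, Sfrp2, Sfrp4, Sfrp5, Frzb, Wif1 and Dkk1 to Dkk4) and 4 R-spondins. The rule itself used no measured value, but the gene list was chosen with earlier results of these data known.

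The study asked how H3K27me3, the trimethyl mark on lysine 27 of histone H3 that Polycomb complexes place on repressed chromatin, is laid out in macrophages with and without the stress kinase PERK, encoded by Eif2ak3. Bone marrow cells of C57BL/6 mice were grown for 7 days in 20 ng/ml M-CSF, and all 10 cultures shared this step. KO cells were Eif2ak3 fl/fl with LysMcre, a Cre recombinase that the lysozyme M gene drives in myeloid cells, and WT cells were Eif2ak3 fl/fl without Cre. M2 cells had 24 h of 20 ng/ml IL-4 (2 KO and 2 WT libraries), M1 cells 24 h of 20 ng/ml LPS with 50 ng/ml interferon-gamma (2 KO and 2 WT libraries), and M0 cells no stimulus (1 KO and 1 WT library). The age and sex of the mice were not given in the labels, and p-values measure the spread between these cultures. The Eif2ak3 body lay outside the called regions, at 0% on average over the 10 libraries, so the mark does not check the deletion.

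Each library is 1 list of H3K27me3 regions, called by the authors without an input control. Cover, the measure used throughout, is the percentage of a gene body with 5 kb on either side that lies under merged regions, and a gene counts as covered when that share is at least 50%. In cultures measured in bulk, a region marked in all cells and 1 marked in part of them cannot be told apart. The libraries held 12.6 to 20.9 megatags and 157 to 251 Mb under regions. Fragment lengths were 178 to 190 bp in the stimulated libraries, against 372 bp in KO M0 and 352 bp in WT M0, so the M0 libraries stood apart. WT replicate 1 also stood apart in both stimulated states, with 52.9 Mb (M2) and 31.3 Mb (M1) of the X chromosome under regions, against 0.687 to 0.990 Mb in the other 8 libraries. In WT M2 replicate 1, 41.3% of tags lay in regions, the lowest share of the 10. It had the lowest cover of the 4 M2 libraries at 22 of the 35 Wnt genes with 1 lowest library. That count was not made over all genes, but this library also had the lowest share of all genes covered. The share was 10.5%, against 14.4% to 15.5% in the other M2 libraries. Between 0 and 1 of 12 macrophage marker genes were covered in a library, and 8 of them had no cover in any. Of lymphoid markers 2 to 6 of 11 were covered, of stromal, endothelial and epithelial markers 1 to 5 of 12, and of housekeeping genes 0 of 10.

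Wnt proteins are lipid-modified secreted glycoproteins. They bind Frizzled receptors, often with an Lrp co-receptor, and either stabilise beta-catenin, which then drives transcription with Tcf and Lef factors, or act on the cytoskeleton and calcium without it. Sfrp proteins, Frzb and Wif1 bind Wnt ligands outside the cell, and Dkk proteins such as Dkk1 bind the Lrp co-receptors. R-spondins bind Lgr receptors and keep Frizzled receptors on the cell surface. Genes of such developmental signals are common targets of Polycomb complexes in differentiated cells, and macrophages are known as a source of some Wnt ligands during tissue repair.

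The sequence before the transcription start is shown for 6 of the genes, because cover at the start and cover of the whole gene gave different pictures. Starts and sequences are from RefSeq (GRCm38.p6, the assembly behind mm10), which lists 32 starts for 29 of the 43 genes. The lines give the 250 bases before the start, 5′ to 3′ on the strand of the gene, with each CpG in capitals. Wnt1 (chr15:98789607-98789856, plus strand) and Wnt3a (chr11:59290752-59291001, minus strand) represent genes whose whole windows lay under regions.
Wnt1: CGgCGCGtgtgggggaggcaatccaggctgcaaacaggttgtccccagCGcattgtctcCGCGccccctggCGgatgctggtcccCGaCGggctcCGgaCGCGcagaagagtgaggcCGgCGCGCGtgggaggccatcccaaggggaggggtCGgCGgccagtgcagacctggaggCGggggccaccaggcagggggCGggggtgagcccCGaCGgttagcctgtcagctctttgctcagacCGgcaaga
Wnt3a: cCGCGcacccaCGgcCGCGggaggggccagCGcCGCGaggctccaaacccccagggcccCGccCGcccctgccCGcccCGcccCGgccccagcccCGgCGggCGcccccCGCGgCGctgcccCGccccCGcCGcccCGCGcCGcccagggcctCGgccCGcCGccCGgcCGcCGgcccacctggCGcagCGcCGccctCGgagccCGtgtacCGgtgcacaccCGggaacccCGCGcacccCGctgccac
Fzd5 (chr1:64737751-64738000, minus strand) and Fzd7 (chr1:59481897-59482146, plus strand) are the genes whose listed start was under a region in none of the 10 libraries.
Fzd5: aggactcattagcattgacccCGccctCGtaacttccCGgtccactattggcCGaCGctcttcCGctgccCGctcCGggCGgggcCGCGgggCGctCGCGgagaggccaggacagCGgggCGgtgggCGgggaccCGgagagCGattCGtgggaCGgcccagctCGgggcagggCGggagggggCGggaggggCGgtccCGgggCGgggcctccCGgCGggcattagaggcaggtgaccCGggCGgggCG
Fzd7: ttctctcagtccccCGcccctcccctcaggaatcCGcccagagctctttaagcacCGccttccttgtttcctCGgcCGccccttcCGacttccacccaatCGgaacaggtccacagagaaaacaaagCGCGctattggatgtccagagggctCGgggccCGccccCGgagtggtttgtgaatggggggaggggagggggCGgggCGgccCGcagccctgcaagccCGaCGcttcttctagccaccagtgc
Wnt16 (chr6:22287977-22288226, plus strand) and Fzd1 (chr5:4758217-4758466, minus strand) had their starts under regions in all 10 libraries, and are among the genes with the largest M2 minus M1 difference in cover of the whole window.
Wnt16: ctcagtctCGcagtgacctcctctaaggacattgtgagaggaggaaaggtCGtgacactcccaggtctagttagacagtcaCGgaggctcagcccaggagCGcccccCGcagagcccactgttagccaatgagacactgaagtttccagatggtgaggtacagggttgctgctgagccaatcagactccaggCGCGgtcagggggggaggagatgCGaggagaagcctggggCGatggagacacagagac
Fzd1: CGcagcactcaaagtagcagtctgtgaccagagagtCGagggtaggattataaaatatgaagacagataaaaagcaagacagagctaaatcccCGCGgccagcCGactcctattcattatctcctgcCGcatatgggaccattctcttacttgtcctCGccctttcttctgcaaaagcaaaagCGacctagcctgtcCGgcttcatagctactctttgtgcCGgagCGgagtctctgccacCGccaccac

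The starts of these genes were nearly always under H3K27me3. Of the 29 genes with a listed start, 26 had every start under a region in all 10 libraries, where 16.6% of 16457 genes with a listed start did. Of the 32 starts, 29 were covered over the full 300 bp tested (250 before and 50 after the start) in every library. The other 3 were at 0% in every library: the start of Fzd5, that of Fzd7, and the middle one of the 3 starts of Wnt5b (chr6:119467162-119467461). Fzd5 and Fzd7 were thus the genes with no start covered in any library, where 67.9% of all genes with a listed start had none. No start was covered in some libraries and not in others. The 14 genes without a listed start were read at their gene ends instead. For 13 of them the 1 kb around at least 1 end was covered in all 10 libraries, against a background of 25.2% of 4208 genes without a listed start. The exception was Dkk4, with 0% at both ends.

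The starts are rich in CpG. The median GC content of the 250 bases was 67.4% over the 32 starts, against 56.0% over all 20085 listed starts. The ratio of observed to expected CpG had a median of 0.764 against 0.547, and 25 of 32 starts (78.1%) reached 0.6, against 45.9% of all starts. All listed starts that were covered in all 10 libraries had a median ratio of 0.579, and those covered in none 0.586. The uncovered Fzd5 start had 32 CpG and a ratio of 0.908, and the uncovered Fzd7 start had 17 and 0.649. The covered start of Wnt3a had 41 and 0.927, that of Wnt1 23 and 0.734, that of Fzd1 12 and 0.751, and that of Wnt16 9 and 0.420. The uncovered middle start of Wnt5b had 4 CpG and a ratio of 0.231, below the 29 covered starts, which had 5 to 48 CpG and ratios of 0.260 to 1.18. The Fzd5 and Fzd7 starts lay within that range.

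**Figure D1:**
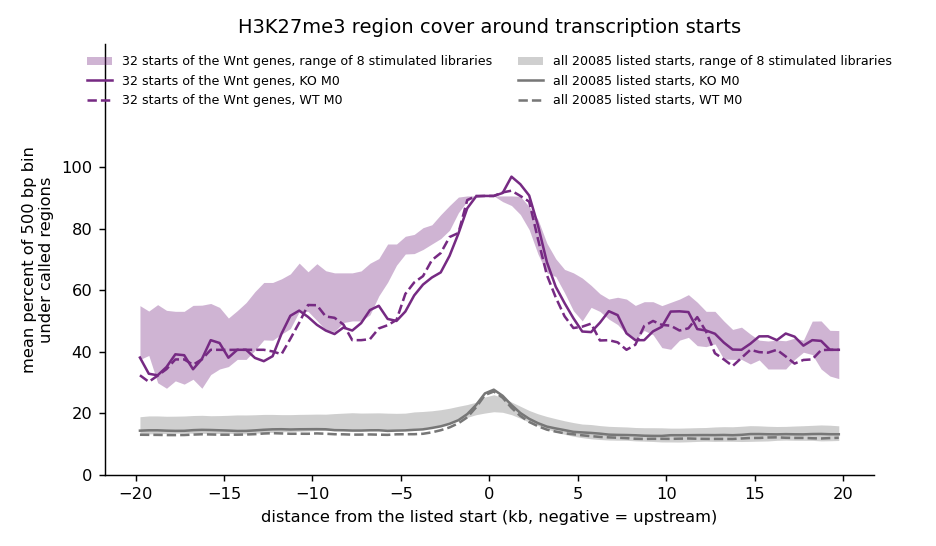
Mean percentage of each 500 bp bin under called regions (vertical axis) by distance from the listed start in kb (horizontal axis), for the 32 starts of the Wnt genes and for all 20085 listed starts; bands span the 8 stimulated libraries, solid lines are KO M0 and dashed lines WT M0. At the start all 10 libraries sit at 90.6% for the Wnt genes, and the libraries spread apart with distance.

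In the 500 bp bins on either side of the start, the 32 starts averaged 90.6% in each library, against 20.1% to 27.7% over all listed starts. At 4.75 kb upstream the stimulated libraries averaged 71.8% to 77.5%, against 53.1% in KO M0 and 58.8% in WT M0. At 9.75 kb upstream the stimulated range was 50.1% to 68.6%, and KO M0 and WT M0 had 48.7% and 55.1%. At 19.75 kb upstream the 10 libraries had 32.3% to 55.0% at the Wnt genes and 13.0% to 18.9% over all starts. These are averages over starts, and do not separate longer regions from further regions nearby.

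**Figure D2:**
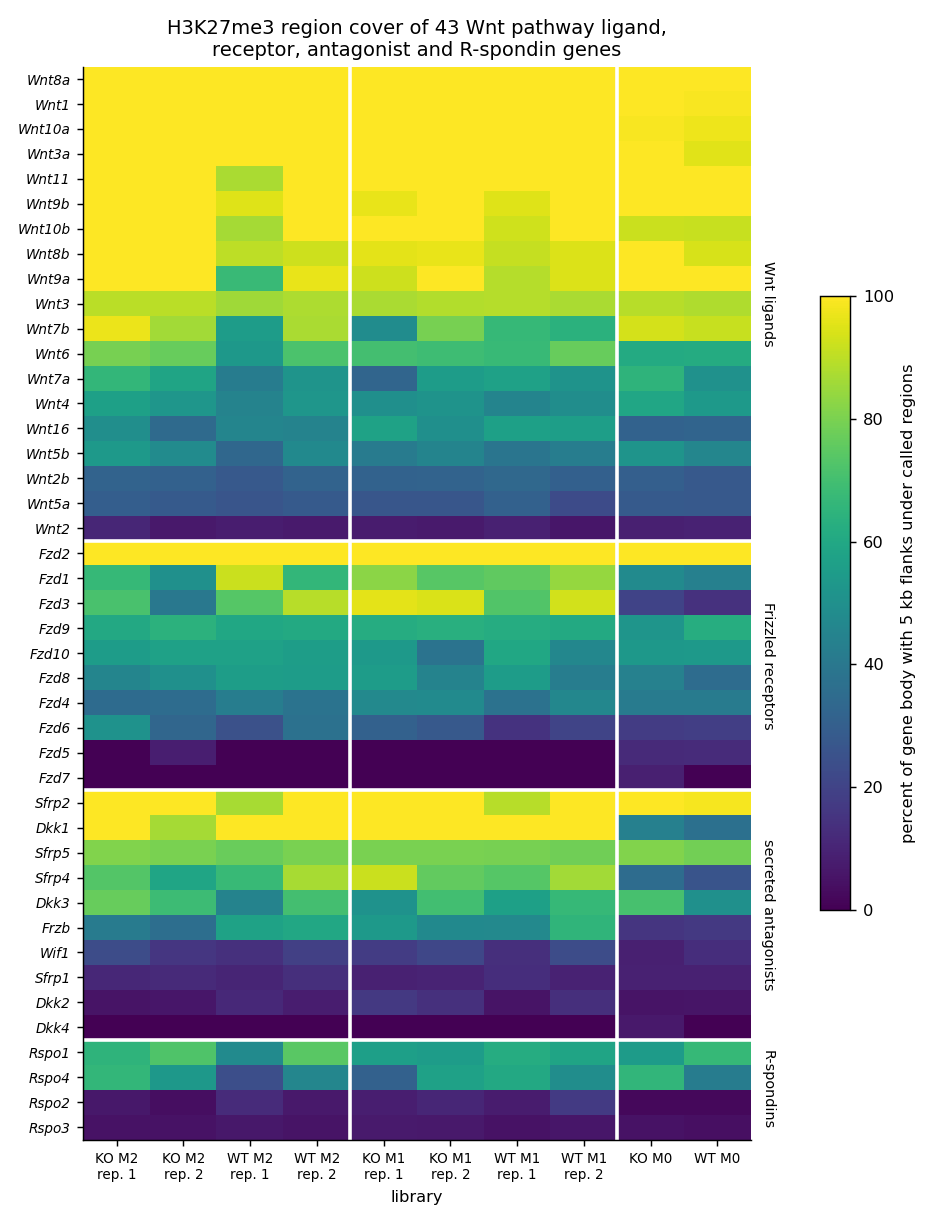
Cover of all 43 genes (rows, by role and falling mean) in the 10 libraries (columns); colour gives the percentage of the gene body with 5 kb flanks under called regions. Wnt ligands fill most of the fully covered rows. Fzd5, Fzd7 and Dkk4 have the lowest means, at 0% in most libraries and at most 12.4% (Fzd5 in WT M0).

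Cover of the whole window ran from none to complete. All 43 genes had some cover in at least 1 library, against 56% of the 20665 genes. Covered in all 10 libraries were 15 genes (34.9%), against 7.92% of all genes, and covered in none were 12 genes (27.9%), against 81.5%. The other 16 were covered in some libraries only. The median over the 43 genes of the mean cover was 60.7%, against 0.563% over all genes. Per library, 21 to 28 of the 43 genes were covered (48.8% to 65.1%), against 10.5% to 15.5% of all genes. The strongest region touching a gene, ranked by the authors' signal within its own list, was at or above the 90th percentile in every library for 22 of the 43 genes. This rank was not computed over all genes, so the count has no background. The median body was 12.2 kb for the 15 genes covered throughout and 30.6 kb for the 12 covered in none. The Spearman correlation of body length and mean cover was -0.26 across the 43 genes, -0.32 across the 11579 genes with any cover and 0.068 across all 20665 genes, a description over genes that share the same libraries.

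Wnt ligands were the most fully covered role. Of 19 ligands, 11 were covered in all 10 libraries and 3 in none, with a median mean cover of 88.2%. Wnt8a, which acts in the early embryo, was at 100% in every library. Wnt1, needed for the midbrain, was at 100% in 9 libraries and at 99.0% in WT M0. Wnt3a, a beta-catenin activating ligand of the early body axis, was likewise at 100% in 9 libraries and at 95.6% in WT M0. WT M0 was thus the 1 library in which either fell short of full cover. Wnt10a, which acts in teeth and skin appendages, was at 100% in all 8 stimulated libraries, at 99.2% in KO M0 and at 97.6% in WT M0. Wnt11, a ligand known for acting without beta-catenin, was at 100% in 9 libraries and at 87.3% in WT M2 replicate 1. For these ligands the libraries below 100% were M0 libraries or WT M2 replicate 1. The ligands covered in no library were Wnt2b (28.0% to 33.6%), Wnt5a (22.7% to 31.2%) and Wnt2 (5.96% to 10.6%), each with its start or 1 gene end under a region throughout. Wnt4, which acts in kidney and ovary and lay closest to the threshold among ligands, had 57.0% and 52.6% in KO M2, 44.8% and 52.7% in WT M2, 49.8% and 51.4% in KO M1, 45.2% and 49.1% in WT M1, 59.2% in KO M0 and 53.8% in WT M0. Its values crossed 50% within every stimulated state.

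Several ligand genes lie side by side, and 1 region often spanned both. Wnt3a and Wnt9a, a ligand of joint formation, lay under 1 region in all 10 libraries, 81.9 to 146.9 kb long. That region was 146.9 and 146.5 kb in KO M2 (chr11:59231938-59378855 in replicate 1), 89.96 and 104.9 kb in WT M2, 94.7 and 125.2 kb in KO M1, 93.1 and 96.0 kb in WT M1, 103.0 kb in KO M0 and 81.9 kb in WT M0. Both KO M2 libraries had a longer region than any other library. This was read from the values and has no background over all genes. Wnt9b and Wnt3, whose annotated bodies overlap, lay under 1 region of 86.4 to 110.7 kb in all 10 libraries. Both act in the embryo, Wnt9b in kidney tubule formation and Wnt3 in gastrulation. Wnt10b and Wnt1 shared a region of 42.6 to 47.8 kb in the 8 stimulated libraries and in neither M0 library. Wnt6 and Wnt10a shared a region of 28.8 to 32.3 kb in 8 libraries. Genes under 1 region are not independent readings of the mark: Wnt3a, Wnt9a, Wnt9b, Wnt3, Wnt10b, Wnt1, Wnt6 and Wnt10a are 8 of the 19 ligands.

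Frizzled receptors ranged across the whole scale. Of 10 receptors 2 were covered in all libraries and 3 in none, with a median mean cover of 50.7%. Fzd2 was at 100% in every library. Fzd9, whose window of short body and flanks held 52.3% to 64.2%, lay under a region of 64.8 and 65.1 kb in KO M2, against 8.19 and 18.7 kb in WT M2. The same region was 8.92 and 23.6 kb in KO M1, 8.24 and 8.76 kb in WT M1, 6.34 kb in KO M0 and 7.57 kb in WT M0. Only 2.17 points separated the KO M2 and WT M2 mean cover of the window. Fzd9 is named after its values were seen, and region lengths were not compared over all genes, so these lengths have no background. Fzd8, near the threshold, had 45.6% and 50.1% in KO M2, 55.8% and 55.3% in WT M2, 55.1% and 44.7% in KO M1, 55.3% and 42.4% in WT M1, 43.9% in KO M0 and 35.4% in WT M0. KO lay below WT in M2 and overlapped it in M1. Fzd5, a receptor of Wnt5a in macrophages, and Fzd7 were the receptors nearly free of regions. Fzd5 was at 0% in 7 libraries, at 8.49% in KO M2 replicate 2, at 11.96% in KO M0 and at 12.4% in WT M0. Fzd7 was at 0% in 9 libraries and at 8.67% in KO M0.

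Secreted antagonists were covered in all libraries for 2 of 10 and in none for 4, with a median mean cover of 53.4%. Sfrp2 and Sfrp5, which bind Wnt ligands, had 86.8% to 100% and 77.3% to 81.2%. Wif1 had 8.74% to 23.4%, Sfrp1 9.17% to 13.5% and Dkk2 5.23% to 16.5%, all with a start or gene end covered throughout. Dkk4 was at 0% in 9 libraries and at 6.98% in KO M0. Of the 4 R-spondins none was covered throughout and 2 in no library, with a median mean cover of 28.6%. Rspo3, known for vessel growth, had 4.03% to 7.17%, and Rspo2, known for limb formation, 1.96% to 17.2%. Rspo1 and Rspo4 varied around the threshold and are described with the comparisons.

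Between M2 and M1 libraries no gene of the 43 passed after Benjamini-Hochberg adjustment over all 11044 genes with cover in a stimulated library (exact two-sided permutation of the state labels, 4 against 4), and 0 genes passed over the whole table. At an unadjusted exact p under 0.05, 1 of the 43 was called, lower in M2. The background was 3.28% of the 11044 genes in either direction, 1.1% higher in M2 and 2.17% lower in M2. With limma on the arcsine square root of cover, 0 of the 43 passed after adjustment and 2, Wnt16 and Fzd4, at an unadjusted p under 0.05 (22 and 854 genes over the whole table). The median M2 minus M1 difference was 0 over the 43 genes and 0 over all genes tested.

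The gene called was Wnt16, a ligand known for its part in cortical bone. Its cover was 49.5% and 34.5% in KO M2, 45.4% and 44.7% in WT M2, 57.6% and 50.0% in KO M1, and 56.9% and 56.2% in WT M1. Every M2 library lay below every M1 library. The mean was 43.6% ± 6.39 over the M2 libraries and 55.2% ± 3.51 over the M1 libraries (SD, n = 4 each), a difference of -11.61 points with an exact permutation p of 0.0286, the smallest that 70 arrangements allow, and an adjusted p of 0.8291. Leaving out WT M2 replicate 2, KO M2 replicate 2 or any 1 of the M1 libraries ended the call at an exact permutation p of 0.0571, and 10 kb flanks did so too, while the difference stayed negative. It was -13.6 to -8.59 points without 1 library and -8.02 points with 10 kb flanks. The call held at -22.74 points with the gene body alone and at -23.33 points with the upper 50% of regions by score. The score did not always rank regions as the signal did, so that setting is not a filter for the strongest regions.

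The other 7 genes with the largest M2 minus M1 differences were not called. Fzd3, a receptor of axon guidance and planar cell polarity, had 71.4% and 39.9% in KO M2, 73.7% and 89.2% in WT M2, 96.0% and 94.3% in KO M1, and 73.0% and 93.0% in WT M1. Its mean was 68.6% ± 20.7 over the M2 libraries and 89.1% ± 10.8 over the M1 libraries (SD, n = 4 each; -20.51 points, exact permutation p = 0.0857), and the states overlapped. Wnt7b, a ligand that macrophages are known to make, had 97.2% and 86.2% in KO M2, 55.2% and 87.2% in WT M2, 48.7% and 79.6% in KO M1, and 67.2% and 63.8% in WT M1. The difference was 16.6 points (exact permutation p = 0.229), and WT M2 replicate 1 was the only M2 library below any M1 library. Fzd6, a receptor of hair patterning, had 51.1% and 33.0% in KO M2, 24.6% and 37.4% in WT M2, 31.2% and 27.9% in KO M1, and 14.5% and 20.3% in WT M1. The difference was 13.1 points (exact permutation p = 0.114), and here too WT M2 replicate 1 was the only overlapping M2 library.

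Sfrp4, an antagonist known from bone, had 73.1% and 58.9% in KO M2, 67.2% and 86.9% in WT M2, 92.0% and 76.0% in KO M1, and 73.8% and 86.0% in WT M1 (-10.43 points, exact permutation p = 0.200). Fzd1 had 66.9% and 50.4% in KO M2, 92.1% and 66.2% in WT M2, 82.5% and 74.1% in KO M1, and 75.7% and 84.2% in WT M1 (-10.27 points, exact permutation p = 0.343). For Fzd1 3 of 4 M2 libraries lay below every M1 library and WT M2 replicate 1 lay above every one. Rspo1, an R-spondin of ovary development, had 65.1% and 72.5% in KO M2, 47.7% and 74.4% in WT M2, 56.3% and 55.1% in KO M1, and 62.0% and 58.4% in WT M1 (6.98 points, exact permutation p = 0.314). Fzd10 had 55.1% and 57.3% in KO M2, 57.3% and 55.7% in WT M2, 53.6% and 38.0% in KO M1, and 59.5% and 46.5% in WT M1 (6.98 points, exact permutation p = 0.286). The states of all 4 genes overlapped.

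The sizes of these uncalled differences often rested on 1 library. Without KO M2 replicate 2 the M2 minus M1 difference was -10.96 points for Fzd3, -6.23 for Sfrp4, -4.10 for Fzd1 and 4.45 for Rspo1. Without WT M2 replicate 1 it was 25.4 points for Wnt7b, -18.0 for Fzd1 and 12.7 for Rspo1, the last 2 with an unadjusted exact permutation p of 0.0286. It was 8.19 points for Fzd6 without KO M2 replicate 1, 3.82 for Rspo1 without WT M2 replicate 2 and 3.18 for Fzd10 without KO M1 replicate 2. Fzd10 also reached an exact permutation p of 0.0286 without WT M1 replicate 1, at 10.35 points.

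**Figure D3:**
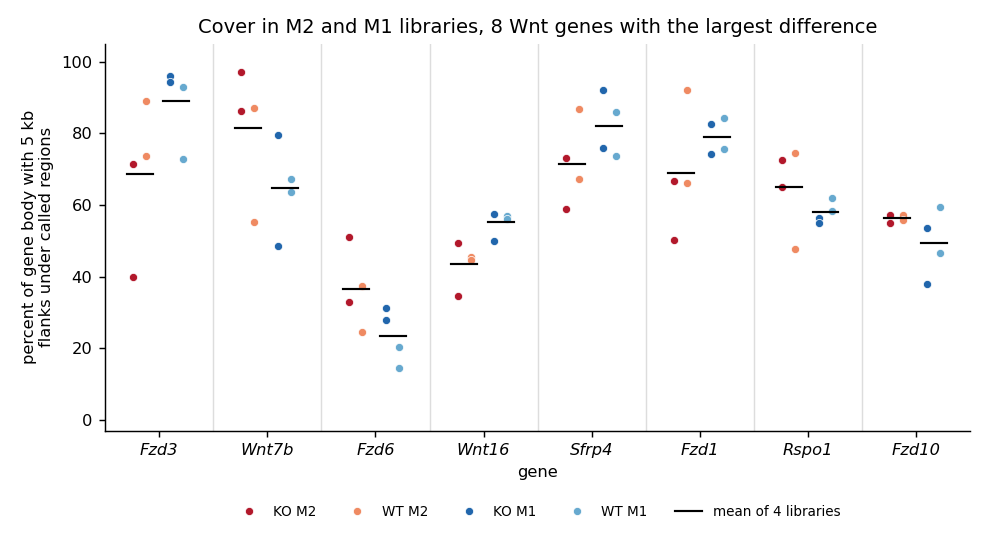
Cover in percent (vertical axis) of the 8 genes with the largest M2 minus M1 difference, 1 point per library, with bars at the mean of 4 libraries. Wnt16 is the only one of the 8 whose M2 and M1 points do not overlap, at 34.5% to 49.5% in M2 and 50.0% to 57.6% in M1.

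Without WT M2 replicate 1, the library with the lowest share of tags in regions, 5 of the 43 genes had all 3 remaining M2 libraries above all M1 libraries (Fzd6, Rspo1, Wnt4, Wnt5b and Wnt7b) and 3 had them below (Fzd1, Rspo2 and Wnt16). The background was 13.1% of genes above and 3.63% below, and the names were read from these values. Without both WT replicate 1 libraries of M2 and M1, 8 genes had every M2 library above every M1 library and 7 below, with a background of 16.5% and 8.1%. With 3 libraries against 3 the exact test cannot go below 0.100. The part of the low share of tags in regions in these differences was not tested.

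Between KO and WT libraries no gene of the 43 passed after adjustment over 11579 genes (exact two-sided permutation of the genotype labels within each state, 72 arrangements), and 0 genes passed over the whole table. At an unadjusted exact p under 0.05, 2 of the 43 were called, both higher in KO. The background was 4.39% of the 11579 genes in either direction, 3.78% higher in KO and 0.605% lower in KO. With limma 0 of the 43 passed after adjustment and 2, Wnt8b and Wnt4, at an unadjusted p under 0.05, with 831 genes over the whole table. Mean cover was higher in KO at 29 of the 43 genes and lower at 12, against 7764 and 3485 of all genes. For the ligands alone the counts were 17 and 1. Without both WT replicate 1 libraries of M2 and M1 the counts were 24 and 16 for the 43 genes, 14 and 3 for the ligands, and 6184 and 5018 for all genes. A ligand at 100% in its KO libraries cannot come out lower in KO, so the ligand counts lean that way. Wnt1, Wnt10a and Wnt3a were at 100% in every stimulated library, and their differences of 0.199, 0.311 and 0.891 points came from M0 alone. That of Wnt11, 2.54 points, came from WT M2 replicate 1 alone. Neighbouring ligands under 1 region are also not independent.

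The 2 genes called were Wnt8b and Sfrp5, which are given here because of their p and not by their size. Wnt8b, a ligand of the forebrain, had 100% and 100% in KO M2, 89.9% and 92.4% in WT M2, 95.7% and 96.6% in KO M1, 91.2% and 94.9% in WT M1, 100% in KO M0 and 94.0% in WT M0. Every KO library lay above every WT library of its own state (5.98 points, exact permutation p = 0.0278, the smallest possible, adjusted p = 0.633). Sfrp5, an antagonist known from fat tissue, had 81.2% and 80.0% in KO M2, 77.3% and 79.8% in WT M2, 79.9% and 79.7% in KO M1, 79.3% and 78.3% in WT M1, 81.1% in KO M0 and 78.6% in WT M0. Its difference of 1.69 points had the same exact permutation p of 0.0278 and adjusted p of 0.633. Without either M0 library the exact test has a smallest p of 0.0556, and neither gene can be called. Leaving out either KO M1 library also ended both calls, and leaving out either KO M2 library or WT M2 replicate 1 ended that of Sfrp5, with differences of 5.15 to 6.99 points for Wnt8b and 1.27 to 2.03 points for Sfrp5 over all single omissions. With the gene body alone the differences were 1.78 points for Wnt8b and 0 for Sfrp5, and neither was called. With the upper 50% of regions by score the differences were 3.63 points for Wnt8b, no longer called, and 33.02 points for Sfrp5, still called, and limma did not call Sfrp5.

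By size of the KO minus WT difference, 8 further genes stood out and none was called. Frzb, a Wnt-binding antagonist, had 41.6% and 36.04% in KO M2, 57.4% and 60.1% in WT M2, 53.7% and 47.6% in KO M1, 47.2% and 65.5% in WT M1, 15.5% in KO M0 and 16.7% in WT M0. It was lower in both KO M2 libraries than in both WT M2 libraries, and overlapped in M1 (-10.48 points over the states, exact permutation p = 0.111). Rspo4, which in humans is known for nail growth, had 66.2% and 53.3% in KO M2, 24.2% and 45.7% in WT M2, 31.0% and 57.1% in KO M1, 60.4% and 49.0% in WT M1, 65.8% in KO M0 and 41.9% in WT M0. It was higher in KO in M2 by 24.8 points, lower in M1 by a difference of -10.64 points with overlap, and the difference over the states was 10.4 points (exact permutation p = 0.333).

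Dkk3, the divergent member of the Dkk family, had 76.8% and 68.7% in KO M2, 44.6% and 70.3% in WT M2, 50.9% and 69.7% in KO M1, 56.8% and 67.02% in WT M1, 70.8% in KO M0 and 50.0% in WT M0 (9.63 points, exact permutation p = 0.250). The genotypes overlapped in M2 and in M1. Wnt9a had 100% and 100% in KO M2, 67.7% and 96.5% in WT M2, 92.3% and 100% in KO M1, 89.0% and 94.8% in WT M1, and 100% in both M0 libraries (8.86 points, exact permutation p = 0.111). Fzd6, whose stimulated values stand above, had 17.9% in KO M0 and 18.4% in WT M0 (9.18 points, exact permutation p = 0.111).

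Wnt5b, a ligand known for acting without beta-catenin, had 53.8% and 48.1% in KO M2, 33.3% and 47.4% in WT M2, 41.6% and 45.1% in KO M1, 38.9% and 42.6% in WT M1, 51.8% in KO M0 and 46.0% in WT M0 (6.45 points, exact permutation p = 0.0833). Fzd1 had 47.8% in KO M0 and 43.7% in WT M0 beside the values above (-8.06 points, exact permutation p = 0.389), and Wnt7b had 93.6% in KO M0 and 91.7% in WT M0 (8.04 points, exact permutation p = 0.500). The genotypes overlapped within at least 1 stimulated state for Frzb, Rspo4, Dkk3, Wnt9a, Wnt5b, Fzd1, Fzd6 and Wnt7b.

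The sizes of several of these differences also rested on 1 library. Over all single omissions Frzb stayed at -14.06 to -8.17 points and Fzd6 at 6.10 to 11.69 points. Without WT M2 replicate 1 the KO minus WT difference was 4.91 points for Rspo4, 4.82 for Dkk3, 3.04 for Wnt9a, 3.66 for Wnt5b, 1.197 for Wnt7b and -2.17 for Fzd1. Without KO M2 replicate 1 it was 6.23 points for Rspo4, 6.10 for Fzd6 and 4.43 for Wnt7b, and without KO M2 replicate 2 it was -3.61 for Fzd1. Without KO M1 replicate 1 it was 17.7 points for Rspo4 and 14.2 for Wnt7b, and without KO M1 replicate 2 it was 4.72 for Wnt7b. Frzb reached an exact permutation p of 0.0278 without WT M1 replicate 1, at -14.06 points.

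**Figure D4:**
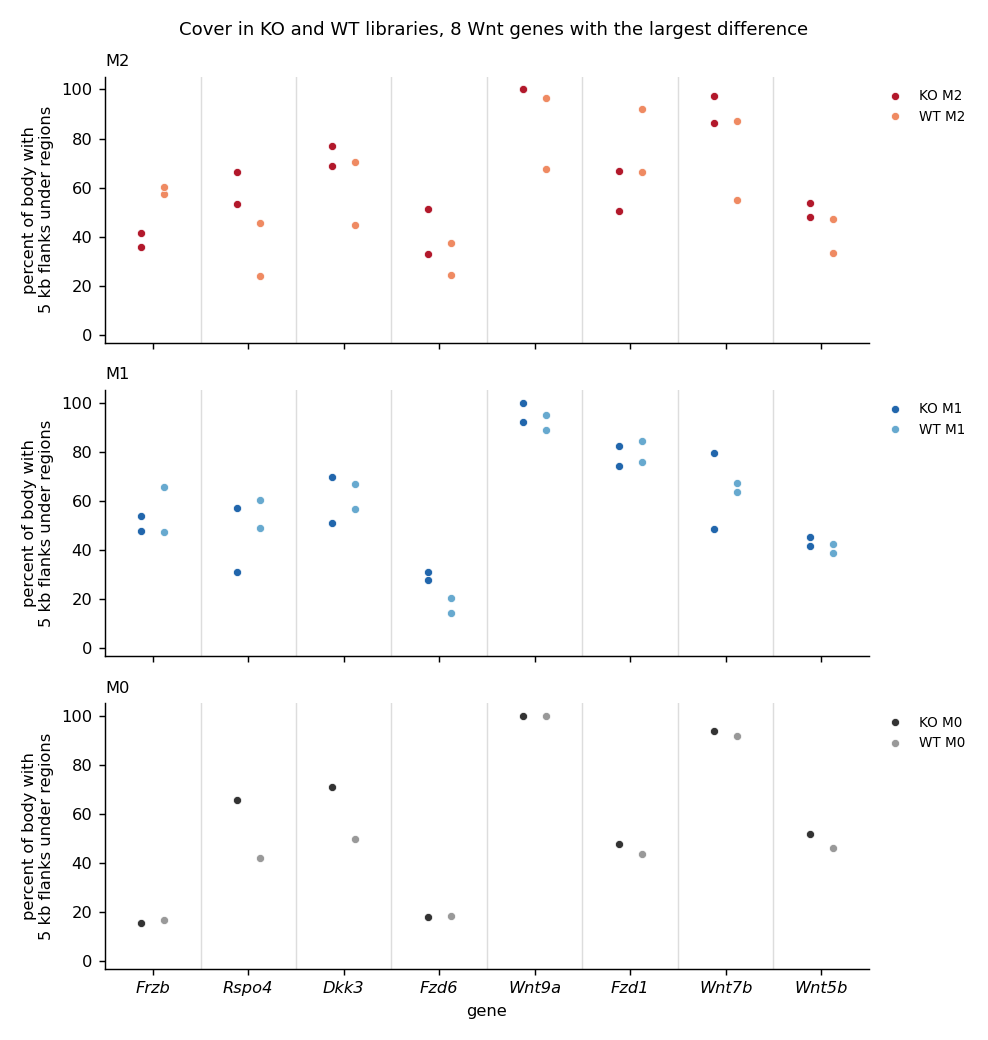
Cover in percent (vertical axis) of the 8 genes with the largest KO minus WT difference, 1 point per library, KO left of WT, in M2 (top), M1 (middle) and M0 (bottom). In M2 Frzb is lower in both KO libraries (36.04% and 41.6%) than in both WT libraries (57.4% and 60.1%), while Rspo4 is higher.

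Within M2, both KO libraries lay above both WT libraries at 8 of the 43 genes and below at 7. The backgrounds were 26% and 9.77% of the 11579 genes with any cover. The 8 were 6 ligands (Wnt3, Wnt5b, Wnt6, Wnt7a, Wnt8b and Wnt9a), Rspo4 and Sfrp5. The 7 were the receptors Fzd3, Fzd4 and Fzd8, the R-spondins Rspo2 and Rspo3, and the antagonists Dkk2 and Frzb, with no ligand. In M1 the counts were 8 above (background 14.4%) and 1 below (background 7.33%), and the 1 was Rspo1. These names were read from the values, and 2 libraries against 2 cannot give an exact p below 0.333. At 4 of the 43 genes (Dkk2, Fzd3, Fzd4 and Rspo3) KO lay below WT in M2 and above WT in M1, and at 0 the reverse. The backgrounds were 0.855% and 2.01% of the genes with any cover. Of the 4, Fzd3 had the largest change between states: KO minus WT was -25.76 points in M2 and 12.2 points in M1. The difference of -37.96 points had an exact permutation p of 0.0556, the smallest that 36 arrangements allow.

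The authors' deposited table of regions higher in KO in M2, the only one of their 4 tables with a region within 5 kb of a Wnt gene, held 4 such regions of 1049, each of the same width and each at another gene. That is 4 of the 43 genes, with a background of 3.59% of all 20665 genes within 5 kb of a region of that table. By the authors' deposited table, the region in Rspo1 (chr4:125007374-125007774) had a log2 fold of 1.58 for KO against WT, with an FDR, the rate of false discoveries, of 0.147. The authors' deposited table gave a log2 fold of 1.44 and an FDR of 0.202 for Wnt5b (chr6:119496949-119497349, inside the body). The same values in the authors' deposited table were 1.41 and 0.167 for Fzd4 (chr7:89403809-89404209, 157 bp outside the body) and 1.36 and 0.194 for Sfrp1 (chr8:23411600-23412000, inside the body). None had an FDR below 0.05. The regions at Rspo1, Fzd4 and Sfrp1 were called in all 10 libraries, and the Wnt5b region in 5: both KO M2 libraries, no WT M2 library, WT M1 replicate 1 and both M0 libraries.

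The cover of whole windows did not always move with these regions. Fzd4, the Norrin receptor of retinal vessels, had 35.1% and 35.2% in KO M2, 42.5% and 38.2% in WT M2, 47.0% and 47.7% in KO M1, 37.9% and 46.4% in WT M1, 41.7% in KO M0 and 41.6% in WT M0. KO lay below WT in M2 and above it in M1. Sfrp1 had 11.0% and 11.9% in KO M2, 10.4% and 13.5% in WT M2, 9.37% and 10.0% in KO M1, 13.2% and 9.42% in WT M1, 9.34% in KO M0 and 9.17% in WT M0. Its genotypes overlapped in both stimulated states. The authors' values count tags in the region and the cover counts bases under regions, so they measure different things.

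Stimulated and M0 libraries were set side by side without a test, since each M0 group is 1 library. At 10 of the 43 genes all 8 stimulated libraries lay above both M0 libraries, and at 1 gene, Fzd5, all 8 lay below. The backgrounds were 17.7% and 9.74% of the 11579 genes with any cover. The 10 were the antagonists Dkk1, Sfrp4, Frzb, Wif1 and Sfrp1, the receptors Fzd1 and Fzd3, the ligands Wnt10a and Wnt16, and Rspo2. Some of the gaps were narrow. The lowest stimulated value was 9.366% for Sfrp1, against 9.335% in KO M0, and 13.57% for Wif1, against 13.25% in WT M0. Wnt10a was at 100% in stimulated libraries, against 99.2% in KO M0. Dkk1, an antagonist of the Lrp co-receptors, had 100% and 86.4% in KO M2, 100% in both WT M2 libraries and in all 4 M1 libraries, 43.7% in KO M0 and 36.9% in WT M0. Its region was 10.4 to 20.98 kb long in stimulated libraries and 4.18 kb in KO M0 and 3.96 kb in WT M0, over the covered start in each. Fzd3 had 39.9% to 96.0% in stimulated libraries, against 20.0% in KO M0 and 14.3% in WT M0. All stimulated values of Sfrp4 lay above its 35.4% in KO M0 and 26.2% in WT M0, and those of Frzb above its M0 values. Stimulated libraries also had more of the genome under regions (214 to 251 Mb, against 177 Mb in KO M0 and 157 Mb in WT M0) and shorter fragments. The state and these library differences cannot be told apart.

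**Figure D5:**
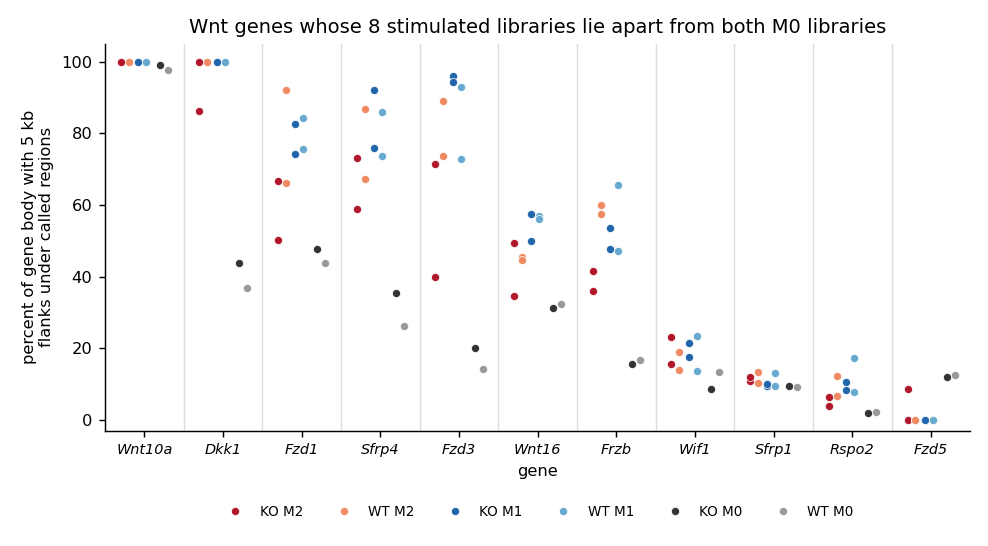
Cover in percent (vertical axis) of the 11 genes whose 8 stimulated libraries lie apart from both M0 libraries, 1 point per library. Dkk1 has 86.4% to 100% in stimulated libraries and 43.7% and 36.9% in KO M0 and WT M0, and Fzd5 is the 1 gene with lower values in stimulated libraries.

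The rest of the pathway, a list of 59 co-receptors, intracellular components and regulators, had lower cover as a group. Of these 59 genes 8 were covered in all 10 libraries and 41 in none, with a median mean cover of 13.3%, against 60.7% over the 43 genes. The 8, named after their values were seen, were the receptors Lgr6 and Ryk, the secreted inhibitors Draxin, Sost and Notum, the intracellular inhibitor Nkd2, the co-repressor Tle2 and the co-activator Pygo1. Listed without any region in a window were Ctnnb1, which encodes beta-catenin, Apc, Gsk3a, Csnk1a1, Dvl2, Dvl3, Pygo2, Cer1 and Myc. No gene of the 59 was called between M2 and M1 by exact permutation at an unadjusted p under 0.05 (background 3.28%), and 1 between KO and WT (background 4.39%). That gene was Btrc, of the complex that tags beta-catenin for breakdown, with a cover of 3.90% and 4.63% in KO M2, 1.55% and 3.46% in WT M2, 3.27% and 2.61% in KO M1, 1.27% and 2.09% in WT M1, 2.99% in KO M0 and 2.73% in WT M0. KO lay above WT within each state, by 1.26 points over all. No gene of the 59 passed after adjustment in either comparison.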

How the data were processed

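H3K27me3 chromatin immunoprecipitation was sequenced in 10 libraries. Per the file headers, the authors called regions library by library with findPeaks of HOMER and no input (windows of 1000 bp, gaps to 2500 bp bridged, FDR 0.001). The submitters' processing notes name DiffBind 2.0.2, HOMER 4.8, deepTools 3.5.1, SAMtools 1.10, Bowtie2 2.4.2 and the mm10 build. Signal in the deposited lists is tags per 10 megatags, per the file headers, and ranked regions within 1 list here. The deposited score is HOMER's own and served 1 alternative. In the authors' tables of differential regions, concentrations and fold are log2 values, beside a p-value and an FDR by the authors. Which libraries, scaling and model they rest on is not stated in the labels.

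Regions of a library were merged, and cover was computed for every protein-coding gene of a RefSeq gene table (GRCm38.p6) on chromosomes 1 to 19 with scipy 1.17.1, pandas 2.3.3 and numpy 2.4.6 under Python 3.11.15. Cover depends on where a caller sets region ends, and so on depth and fragment length. Tests were exact permutations over libraries with Benjamini-Hochberg adjustment over all genes with cover, which were tested on simulated data; limma 3.58.1 in R 4.3.3 was the alternative. Others were gene body alone, 10 kb flanks, the upper 50% of regions by score, thresholds of 25% and 75%, leaving out libraries, and replicate blocks. The alternatives without both WT replicate 1 libraries, and those for starts, M0 and KO against WT within M2, were added after seeing the data. Genes were named by size of difference (8 per comparison), highest cover (6), cover nearest 50% (4), neighbours and authors' regions. The gene lists were chosen with earlier results of these data known. Promoter sequences are from RefSeq, and 29 of 43 genes matched. The RefSeq gene table holds no strand, so exons, introns and untranslated regions were not analysed here.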

Additional observations from a re-analysis of the deposited data

Results flagged for a closer look

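Of 69 groups of 4 libraries of 1 gene in M2 or M1, 12 had 1 library far from the other 3. Values spread like a normal distribution give about 1 in 20, but cover is bounded at 0% and 100%. The share over all genes was not computed, so the count has no background and is not a trait of these genes. In 7 of the 12 the other 3 libraries were all at the same value, 0% or 100%, so that any gap counts. A WT replicate 1 library was the one apart in 10 of the 12. In M2, WT replicate 1 had 67.7% for Wnt9a (96.5% to 100% in the others), 86.8% for Sfrp2 (99.6% to 100%), 87.3% for Wnt11, 95.3% for Wnt9b and 86.6% for Wnt10b (100% in the others for each). In M1, WT replicate 1 had 73.0% for Fzd3 (93.0% to 96.0% in the others), 37.9% for Fzd4 (46.4% to 47.7%), 89.3% for Sfrp2 and 92.8% for Wnt10b (100% in the others for both), and a higher value for Sfrp1, 13.2% (9.37% to 10.0%). KO M2 replicate 2 had 8.49% for Fzd5 (0% in the others) and 86.4% for Dkk1 (100% in the others). The WT replicate 1 libraries also had more of the X chromosome under regions, and the part of that difference in these values was not tested.

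At 4 genes both KO libraries lay on opposite sides of both WT libraries in the stimulated states, lower in M2 and higher in M1. The background was 0.855% of the genes with any cover. The KO minus WT difference was -25.76 points in M2 and 12.2 points in M1 for Fzd3, a change of -37.96 points. For Fzd4 it was -5.22 and 5.22 points, a change of -10.45 points. For Dkk2 it was -4.00 and 5.60 points, a change of -9.60 points. For Rspo3 it was -1.09 and 1.46 points, a change of -2.55 points. Each had an exact permutation p of 0.0556, the smallest possible over 36 arrangements, so the difference between states could not pass 0.05. WT M1 replicate 1 was the lowest of the 4 M1 libraries at Fzd3, Fzd4, Dkk2 and Rspo3.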

How the results depend on the processing

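Counts at an unadjusted p under 0.05 moved most. Between M2 and M1 the main counts were 1 of the 43 genes and 362 of all genes. For the 43 genes the count was 0 with 10 kb flanks, 3 with the upper 50% of regions by score, 2 with limma and 0 to 4 without 1 library (4 without WT M2 replicate 1). For all genes it was 215 with the gene body alone, 439 with 10 kb flanks and 273 by score. With limma it was 854 (22 after adjustment), and without 1 library 239 to 1079. Between KO and WT the main counts were 2 and 508. For the 43 genes the count was 0 with the gene body alone and 0 to 4 without 1 library. For all genes it was 305 with the gene body alone, 226 by score, 831 with limma and 0 to 750 without 1 library (0 without either M0 library, which leaves 36 arrangements and a smallest exact p of 0.0556). Labels permuted within genotype for M2 against M1, no M0 libraries for KO against WT, and no WT replicate 1 libraries of M2 and M1 in either comparison gave 0 and 0, since none of these designs can reach 0.05.

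The labels do not say that a replicate number is shared, so the numbers were not taken to pair the libraries. Correlations of deviations between libraries of 1 number were 0.157, 0.209, 0.314 and -0.145 between M2 and M1, and -0.738 to -0.200 between KO and WT. Signs were mixed between M2 and M1 and negative throughout between KO and WT. The correlations were not taken to decide whether the numbers pair the libraries. The WT replicate 1 libraries of M2 and M1 share a large X cover, and whether they share a source was not tested. With the replicate block, 0 of the 43 genes and 0 of all genes were called in either comparison, and its smallest p was 0.125 for M2 against M1 and 0.0625 for KO against WT. No adjusted call of the 43 genes appeared under any alternative.

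The count covered throughout was 15, with 29 at a threshold of 25%, 15 to 17 without 1 library and 0 by score. The count covered in none was 12, with 23 at 75% and 12 to 13 without 1 library. Starts covered in all libraries stayed at 29 without any 1 library and were 0 by score. The score alternative keeps only part of each list, so its cover can only be the same or lower. It did not always keep the regions of highest signal. The Wnt1 region lay at or above the 99.2nd percentile of signal in every library. By score it was dropped at the Wnt1 start in both KO M2 and both KO M1 libraries. Genes with all stimulated libraries above M0 (10) numbered 6 with the gene body alone, 0 by score and 10 to 13 without 1 library. Those below (1) numbered 3, 0 with 10 kb flanks, 2 by score and 1 to 3. Both KO M2 above both WT M2 (8) became 8 to 22 without 1 M2 library, with 22 without WT M2 replicate 2 and 16 without KO M2 replicate 2. The reverse (7) became 8 to 12, with 11 without WT M2 replicate 1 and 12 without KO M2 replicate 1. Leaving out a library can only keep or raise these counts of separated genes. The share over all genes was not computed for these settings, so the counts have no background.

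Among named genes 8 differences turned sign. With the gene body alone Fzd1 was 1.54 points for M2 minus M1 and 3.29 points for KO minus WT. By score, M2 minus M1 was 29.68 points for Fzd1, -3.93 for Rspo1 and -7.88 for Fzd10, and KO minus WT was -2.46 for Rspo4, -1.72 for Wnt9a and -1.95 for Wnt5b. Other moves of over 1.5 times, same sign, were Fzd3 -46.33, Sfrp4 -22.3 and Fzd6 7.84 by score for M2 minus M1, Frzb -2.86, Dkk3 4.17 and Wnt7b 24.1 by score for KO minus WT, and Sfrp4 -21.31 and Rspo1 11.4 with the gene body alone. With 10 kb flanks they were Fzd1 -4.50 and Fzd10 4.62 for M2 minus M1, and Fzd6 5.88, Rspo4 6.83 and Sfrp5 0.996 for KO minus WT. The cause was not tested. Leaving out 1 library turned no sign among the named genes. The lists hold called regions only, so a value of 0 means no region was called at this depth.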

Other observations

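Celsr1, an atypical cadherin of planar cell polarity on the wider pathway list beside the 43 genes, is named after its values were seen. Its cover was 69.5% and 61.2% in KO M2, 10.9% and 52.7% in WT M2, 15.6% and 19.5% in KO M1, 16.4% and 12.7% in WT M1, 60.5% in KO M0 and 50.3% in WT M0. All M1 libraries and WT M2 replicate 1 lay below the 5 other libraries, which were all above 50%. The M2 minus M1 difference was 32.5 points (exact permutation p = 0.143), and KO minus WT was 16.6 points (exact permutation p = 0.0556). By the authors' deposited table a region inside the Celsr1 body (chr15:85928180-85928580) had a log2 fold of 1.70 for KO against WT in M2, with a false discovery rate of 0.188.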
